A study of Mus musculus with 18 samples.

Results

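The late answer of AhR-deficient epidermis to tape stripping was read from 6 of the 18 arrays of the series, the 3 of knockout skin taken 24 h after stripping and the 3 of knockout skin taken before it. The KO 24 h and KO 0 h arrays come from female AhR-/- mice of the line B6.129-AhRtm1Bra/J on a B6;129 background, a null allele carried by every cell of the animal. WT arrays, which enter as a further comparison, come from AhR+/+ littermates at the same 2 times. Shaved back skin was stripped 5 times with adhesive film for the 24 h groups and left unstressed for the 0 h groups, and RNA of epidermal sheets was hybridised to Affymetrix gene arrays. No age is given in the labels. The design note counts 3 littermates of each genotype at every time, and each array was taken as 1 such animal.

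AhR, the aryl hydrocarbon receptor, switches on genes when small molecules from the environment, the diet or microbes bind to it, and keratinocytes, Langerhans cells and gamma-delta T cells of the epidermis carry it. Tape stripping pulls off the outer cornified layers. Keratinocytes below them are known to answer first with signalling and stress genes, then with wound keratins and antimicrobial proteins, and about a day later with a round of DNA synthesis and division that thickens the epidermis.

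The values are logs with the median of each row over the 18 arrays removed, read here as log2, although nothing given with the table states the base. They show differences between arrays but no level of a gene, so the markers that define epidermis could not be checked as present or absent. All values below are such centred log2 values, given in the order of the replicate numbers, and every difference is KO 24 h minus KO 0 h unless another is named. A row passed at a Benjamini-Hochberg adjusted p under 0.05 in limma, over the 23521 rows that name a single gene. Across these rows the 3 KO 24 h arrays correlated with each other at 0.48 to 0.51. Among the KO 0 h arrays, replicates 2 and 3 correlated at 0.58, and replicate 1 correlated with them at 0.39 and 0.33. Each sample also carries a 4-digit number of unstated meaning. All 3 KO 24 h arrays have numbers from 3000 up, as do 2 of the 3 KO 0 h arrays, while KO 0 h replicate 1 has a lower one.

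In knockout epidermis 24 h after stripping, the wound keratins Krt6b, Krt6a and Krt16 were higher than before it. So were 5 of 13 stefin and cystatin genes and 23 of 42 genes of DNA replication. Of 28 genes of small proline-rich and late envelope proteins, 6 were higher. All 11 measured Skint genes, 5 of 22 quiescence genes and 6 of 33 junction genes were lower. The lists were drawn up with earlier results of these data known, and the Skint and stefin families after their values were seen. Of 23521 rows, 2249 passed (9.56%). Among them 727 lay higher (3.09%) and 1522 lay lower (6.47%) in KO 24 h arrays. Before adjustment, 5382 rows had a p under 0.05. The higher rows were fewer but held the largest differences. A difference over 1 was reached by 53 higher and 67 lower rows, and the extremes were 5.34 and -1.51. The passing higher rows had a median of 0.50 and the passing lower rows one of -0.58, while the median of all rows was 0.02. The arrays of KO 24 h and KO 0 h did not overlap in 721 of the 727 and in 1510 of the 1522 passing rows, against 29.5% of all rows. Passing rows were chosen by the difference between these same arrays. This separation, and that of single passing genes below, is therefore largely set by the choice and is no further support. Epidermal sheets are bulk tissue, so fewer cells of a type and less RNA per cell cannot be told apart. Counts of passing rows depended on single arrays. They were 259 higher and 770 lower without KO 0 h replicate 3, 321 and 885 without KO 0 h replicate 2, 309 and 910 without KO 24 h replicate 1, and 486 and 998 without KO 24 h replicate 3. Among arrays with numbers from 3000 up, 914 rows were higher and 1619 lower.

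Ahr had values of -0.59, -0.74 and -0.64 in KO 24 h arrays, against -0.13, 0.04 and -0.02 in KO 0 h arrays. All 3 arrays of KO 24 h lay below all 3 of KO 0 h, with a difference of -0.62 (SE 0.14, adjusted p = 0.0147). Where the probes of this row lie relative to the disrupted part is not given, so the value does not tell how much working receptor the animals held. Without KO 24 h replicate 2 or KO 0 h replicate 2 or 3 it no longer passed. Of the 7 measured genes of AhR and its partners, no other passed, and Arnt, the dimer partner, differed by -0.35 (adjusted p = 0.0511). Xist and Y-linked genes were read because the animals are labelled female. Xist differed by -0.97 (adjusted p = 0.218), and by -1.25 among arrays with numbers from 3000 up. Its values were -0.11, -0.14 and -0.01 in KO 24 h arrays, all below the 0.31, 1.01 and 1.32 of KO 0 h arrays. The Y-linked genes Kdm5d, Eif2s3y and Uty differed by 0.03, 0.07 and 0.00. Centred values hold no level of a gene, so these differences do not tell the sex of the animals.

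Wound keratins made the largest change. Krt6b, a keratin that interfollicular keratinocytes make only when activated, had values of 4.20, 3.43 and 4.18 in KO 24 h arrays, against -0.95, -1.53 and -1.72 in KO 0 h arrays. The groups lay far apart, and the difference was 5.34 (SE 0.79, adjusted p = 0.00204), which is 40.4-fold on the assumed log2 scale. A further quantile normalisation, which pulls in extreme values, made it 3.25. Krt6a, its neighbour and close copy, had values of 1.87, 1.20 and 1.61 in KO 24 h arrays, against -2.65, -1.65 and -2.19 in KO 0 h arrays, a difference of 3.72 (SE 0.74, adjusted p = 0.00698). Krt16, the type I partner of keratin 6, had values of 1.81, 1.11 and 1.55 in KO 24 h arrays, against -1.49, -2.58 and -1.67 in KO 0 h arrays. It rose by 3.40 (SE 0.48, adjusted p = 0.00165), and as for Krt6a and Krt6b no array of KO 24 h overlapped with KO 0 h. Krt6a and Krt6b are near-identical, so probes of their rows may read both.

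The antimicrobial members of the same group rose less. Lcn2, the iron-sequestering lipocalin 2, had values of 2.72, 1.0 and 1.40 in KO 24 h arrays, against -0.41, -0.49 and -0.10 in KO 0 h arrays, a rise of 2.04 (adjusted p = 0.00729). KO 24 h replicate 1 was the highest for Lcn2. Chil1, a chitinase-like secreted protein, rose by 1.16 (adjusted p = 0.00484), and S100a9, one chain of calprotectin, by 0.84 (adjusted p = 0.0028). Its partner S100a8 differed by 1.10 but with a larger spread (SE 0.37, adjusted p = 0.0752). Outside the lists, Nppb, the natriuretic peptide BNP, rose by 2.22 and Igfl3, a secreted insulin growth factor-like protein, by 2.12. Igfl3 was 1.31 after a further quantile normalisation. In all, 6 of 27 measured wound keratins and alarmins passed, each higher, against 3.12% higher and 6.7% lower over all 22180 genes at 1 row each. Of the 27, 22 lay above 0, against 13056 of all 22180 genes, and the median was 0.17. Counts above or below 0 given for other lists stand beside these 13056 above and 9124 below. The count was 6 or 7 without any single KO array, and the median was 0.27 without KO 0 h replicate 1.

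**Figure D1:**
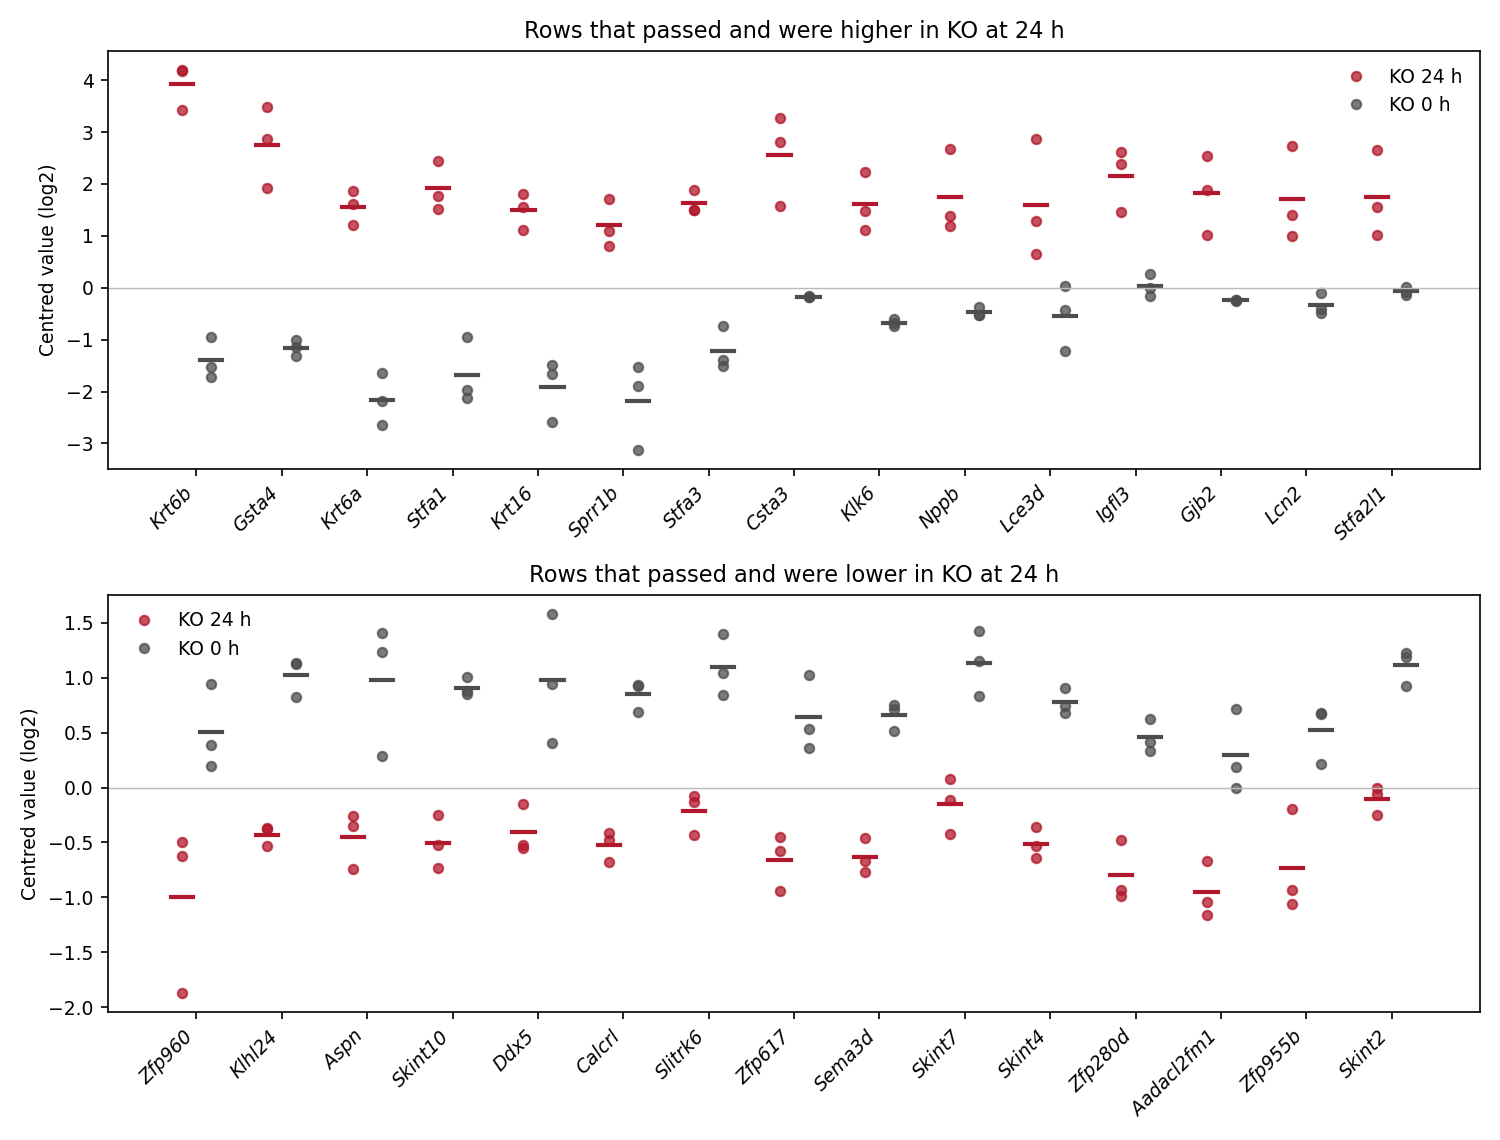
Centred log2 values (y axis) of the 15 genes with the largest rise (top) and the 15 with the largest fall (bottom) among those that passed, with 1 point per array, KO 24 h left of KO 0 h, and bars for the mean of 3 arrays. The upper panel runs from Krt6b at 5.34 to Stfa2l1 at 1.81, and the falls in the lower panel lie between -1.51 and -1.22.

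Some stefins, small intracellular inhibitors of cysteine proteases found in cornified cells, rose. Stfa1 had values of 2.44, 1.52 and 1.78 in KO 24 h arrays, against -0.95, -2.13 and -1.98 in KO 0 h arrays, a difference of 3.60 (SE 0.61, adjusted p = 0.0034). Csta3 had values of 3.28, 1.58 and 2.80 in KO 24 h arrays, against -0.18, -0.18 and -0.17 in KO 0 h arrays, a difference of 2.73 (SE 0.35, adjusted p = 0.00135). The KO 0 h arrays held nearly the same Csta3 value, while the KO 24 h arrays spanned 1.58 to 3.28. A further quantile normalisation made the Csta3 difference 1.78. Stfa3 rose by 2.85 (adjusted p = 0.00162), Stfa2l1 by 1.81 (adjusted p = 0.0028) and Cstdc6 by 1.13 (adjusted p = 0.0393). In this family of stefin and cystatin genes, gathered after its values were seen, 5 of 13 measured members passed, each higher. That is 38.5%, against 3.12% higher of all genes, and the median was 0.10. The rows of Stfa2, Csta1, Csta2 and 5 further Cstdc genes differed by -0.25 to 0.45 and did not pass. Several members are close copies of each other, so which of those copies rose is uncertain.

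Small proline-rich proteins and late cornified envelope proteins are cross-linked into the envelope of dying keratinocytes, and some are switched on mainly in stressed epidermis. Sprr1b had values of 1.71, 0.81 and 1.09 in KO 24 h arrays, against -1.90, -3.12 and -1.52 in KO 0 h arrays. No array overlapped, and the difference was 3.38 (SE 0.52, adjusted p = 0.00219). Sprr2h had values of 0.84, 0.43 and 0.85 in KO 24 h arrays, against -0.17, -0.34 and -0.16 in KO 0 h arrays, a rise of 0.93 (adjusted p = 0.00207). Lce3d and Lce3c, the late envelope genes tied to barrier injury in human skin, rose by 2.14 and 1.62 (adjusted p of 0.0297 and 0.0366), and Sprr2e and Sprr2b by 1.73 and 0.93. Sprr2b was 0.62 after a further quantile normalisation. These 6 of 28 measured members passed (21.4%, against 3.12% higher of all genes), and none was lower. Of the 28, 27 lay above 0, with a median of 0.22. The median was 0.38 without KO 0 h replicate 1 and 0.13 without KO 24 h replicate 1. Only 2 of them passed without KO 0 h replicate 2, KO 0 h replicate 3, KO 24 h replicate 1 or KO 24 h replicate 3. Lce3d was highest in KO 24 h replicate 1, at 2.86, against 0.66 and 1.29 in the other KO 24 h arrays.

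The promoters of Sprr2h and Sprr1b are shown because AP-1, a dimer of Fos and Jun family proteins, is known to act on Sprr genes. They were picked in order of p among risen members whose promoters hold the letters marked below. The matches shown were thus set by that choice. The sequences from RefSeq (GRCm38.p6) run 5' to 3' on the gene's strand, from 250 bases before the start site to 50 after it, and capitals mark TGANTCA, searched on both strands. The Sprr2h window is chr3:92385435-92385734 on the plus strand and the Sprr1b window chr3:92438730-92439029 on the minus strand.
Sprr2h: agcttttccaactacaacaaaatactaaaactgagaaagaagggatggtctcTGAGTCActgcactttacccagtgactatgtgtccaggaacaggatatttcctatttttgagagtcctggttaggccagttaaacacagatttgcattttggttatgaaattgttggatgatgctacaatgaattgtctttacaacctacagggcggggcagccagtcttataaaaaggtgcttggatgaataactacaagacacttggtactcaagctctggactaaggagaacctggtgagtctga
Sprr1b: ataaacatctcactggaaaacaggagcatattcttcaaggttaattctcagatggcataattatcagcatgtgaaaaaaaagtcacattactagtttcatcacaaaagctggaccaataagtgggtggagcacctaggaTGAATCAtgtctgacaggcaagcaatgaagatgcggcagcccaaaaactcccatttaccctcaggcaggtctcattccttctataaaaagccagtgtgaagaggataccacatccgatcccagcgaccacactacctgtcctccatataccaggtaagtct
The motif starts 198 bases before the Sprr2h start site and 111 before that of Sprr1b. It occurs in 8 of the 26 measured members with a promoter (30.8%), among them 4 of the 6 that rose, and in 8.97% of all 27025 promoters. A match is a description of letters and no evidence of binding.

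Other envelope and differentiation genes went both ways. Of 37 measured members, 6 rose (16.2%) and 4 fell (10.8%), against 3.12% and 6.7% of all genes. Besides the 4 stefins, Lgals7 (galectin 7) rose by 0.29 and Krt1, the keratin of early differentiation, by 0.34. Scel, encoding the envelope precursor sciellin, had values of -0.44, -0.27 and -0.43 in KO 24 h arrays, against 0.53, 0.40 and 0.43 in KO 0 h arrays, a difference of -0.83 (SE 0.13, adjusted p = 0.00207). All KO 24 h arrays were below all KO 0 h arrays. Flg2 (filaggrin 2) fell by 0.88, Ivl (involucrin) by 0.71 and Ppl (periplakin) by 0.32. Without single arrays 4 to 6 rose and 1 to 3 fell, with 1 fall left without KO 0 h replicate 2 or KO 24 h replicate 1 and 2 without KO 24 h replicate 2.

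Among 29 epidermal proteases and inhibitors, the kallikreins Klk6, Klk13 and Klk10, serine proteases of the upper epidermis, rose by 2.28, 1.42 and 1.17 (adjusted p of 0.0046, 0.00354 and 0.0208). The inhibitors Serpinb7 and Spink5 fell by 0.94 and 0.80 (adjusted p of 0.00801 and 0.00851). Of the 29, 10.3% rose, against 3.12% of all genes, and 6.9% fell, near the 6.7% of all genes. Spink5 encodes LEKTI, which restrains kallikreins in the stratum corneum. Its values were -0.49, -0.42 and -0.65 in KO 24 h arrays, against 0.32, 0.24 and 0.26 in KO 0 h arrays, with no overlap. Klk6 values were 2.23, 1.12 and 1.48 in KO 24 h arrays, against -0.74, -0.60 and -0.68 in KO 0 h arrays, also apart. Both inhibitors, Klk6 and Klk13 passed without any single KO array, while Klk10 did not pass without KO 0 h replicate 1 or 3 or KO 24 h replicate 1 or 3.

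Of 33 tight junction and desmosome genes, 6 fell (18.2%, against 6.7% of all genes) and 0 rose. Of the 33, 24 lay below 0, with a median of -0.06. The median was -0.14 without KO 24 h replicate 3, -0.13 without KO 24 h replicate 1, and -0.11 without KO 0 h replicate 1 or 2. The desmosomal cadherins Dsg1a, Dsc3, Dsc1 and Dsg2 fell by 0.67, 0.60, 0.57 and 0.38. The tight junction genes Cldn8 (claudin 8) and Marveld2 (tricellulin) fell by 0.51 and 0.31. Dsc3 had values of -0.39, -0.26 and -0.47 in KO 24 h arrays, against 0.03, 0.31 and 0.33 in KO 0 h arrays, so the groups did not overlap. The count of 6 was 2 without KO 0 h replicate 2 or 3 or KO 24 h replicate 1 or 3, and 3 without KO 24 h replicate 2.

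DNA replication genes had the highest share of rises among the 26 pathway lists. Those lists were drawn up with earlier results of these data known, so their shares and order are a description and no independent support. Of 42 measured genes of origin licensing and DNA synthesis, 23 passed (54.8%), each higher, against 3.12% higher of all genes. Of the 42, 37 lay above 0 and the median was 0.44. Mcm2, a subunit of the MCM helicase that licenses origins, had values of 0.75, 0.44 and 0.42 in KO 24 h arrays, against -0.66, -0.46 and -0.48 in KO 0 h arrays. The groups were apart, with a difference of 1.07 (SE 0.13, adjusted p = 0.00135). Mcm5, of the same helicase, had values of 0.81, 0.61 and 0.62 in KO 24 h arrays, against -0.76, -0.67 and -0.23 in KO 0 h arrays, a difference of 1.23 (SE 0.20, adjusted p = 0.00251). The helicase subunits Mcm3, Mcm7 and Mcm4 rose by 0.97, 0.70 and 0.65.

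Cdt1, which loads the helicase, and Gmnn, which restrains Cdt1, rose by 0.61 and 0.44, and the helicase activators Gins2, Gins1, Mcm10 and Cdc45 by 0.71, 0.65, 0.54 and 0.49. Enzymes that supply nucleotides rose as well. Tk1, thymidine kinase, had values of 1.06, 1.13 and 0.89 in KO 24 h arrays, against -0.39, -0.02 and 0.25 in KO 0 h arrays, a difference of 1.08 (SE 0.14, adjusted p = 0.0015). Rrm2, the regulated subunit of ribonucleotide reductase, rose by 0.88. KO 24 h arrays lay above KO 0 h arrays for both genes. At the fork, the polymerase subunits Pola2 and Pold1 rose by 0.62 and 0.61, the clamp loader subunit Rfc5 by 0.66 and the flap endonuclease Fen1 by 0.55. Chaf1b, which places histones on new DNA, had values of 0.92, 0.65 and 0.55 in KO 24 h arrays, against -0.28, -0.34 and -0.06 in KO 0 h arrays, a rise of 0.93 (SE 0.13, adjusted p = 0.00162). The transcription factor genes E2f8 and E2f1 rose by 0.79 and 0.36. Without any single KO array 16 to 21 of the 42 passed and 0 were lower.

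Chaf1b and Mcm3 promoters are shown because E2F factors are known to drive genes of this kind. Risen members whose promoters lack the letters marked below were passed over, so the matches shown were set by the choice. Windows and source are as above, chr16:93883651-93883950 on the plus strand for Chaf1b and chr1:20820263-20820562 on the minus strand for Mcm3. Capitals mark the letters TTCCCGC, and also TTGGCGC, and also TTCGCGC, and also TTGCCGC, searched on both strands.
Chaf1b: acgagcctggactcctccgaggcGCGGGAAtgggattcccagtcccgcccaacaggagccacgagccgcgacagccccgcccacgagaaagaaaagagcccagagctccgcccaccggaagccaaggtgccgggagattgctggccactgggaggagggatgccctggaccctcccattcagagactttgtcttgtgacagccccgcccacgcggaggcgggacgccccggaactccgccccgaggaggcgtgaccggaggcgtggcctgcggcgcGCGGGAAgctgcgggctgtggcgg
Mcm3: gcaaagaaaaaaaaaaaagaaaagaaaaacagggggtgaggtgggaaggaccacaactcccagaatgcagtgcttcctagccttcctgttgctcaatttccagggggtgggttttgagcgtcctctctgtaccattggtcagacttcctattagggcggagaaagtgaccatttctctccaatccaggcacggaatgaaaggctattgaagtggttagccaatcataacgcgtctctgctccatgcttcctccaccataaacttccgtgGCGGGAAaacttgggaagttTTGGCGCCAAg
In Chaf1b a match starts 227 bases before the start site and another 26 after it. In Mcm3 matches start 19, 39 and 42 bases after it, the last pair overlapping on opposite strands. Of the 36 measured replication genes with a promoter, 24 held such a match (66.7%), among them 12 of the 19 that rose and had a promoter. Over all promoters the share was 10.9%.

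Genes of mitosis and G2 rose in part. Of 52 measured genes, 13 rose (25%) and 1 fell (1.92%), against 3.12% and 6.7% of all genes, and the median was 0.16. Of the 52, 31 lay above 0, a share near that of all genes (13056 of 22180). Plk1, a kinase that drives mitotic entry, had values of 1.15, 0.54 and 0.78 in KO 24 h arrays, against -0.23, -0.33 and -0.47 in KO 0 h arrays, a difference of 1.16 (SE 0.17, adjusted p = 0.00192). Cdk1, the main mitotic kinase, had values of 0.90, 0.87 and 0.70 in KO 24 h arrays, against -0.06, -0.31 and -0.06 in KO 0 h arrays, a difference of 0.97 (SE 0.14, adjusted p = 0.00165). For both kinases the groups stayed apart. Melk, Ube2c, Ccnb2 and Ncaph rose by 0.84, 0.82, 0.75 and 0.66. Cdc20, Aurkb, Birc5, Cenpa, Kif18b, Cdca3 and Foxm1 rose by 0.49 to 0.59. Ttk, the spindle checkpoint kinase MPS1, fell by 0.58 (adjusted p = 0.0489), and did not pass without any single KO array. The 13 became 7 without KO 0 h replicate 2 or KO 24 h replicate 1, and 8 without KO 0 h replicate 3, and the median was 0.11 without KO 24 h replicate 1.

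Cenpa, the centromeric histone, and Cdk1 are shown with their promoters. Many mitotic genes carry a CHR element, which the DREAM and MuvB complexes bind, near CCAAT boxes bound by NF-Y. Only risen members holding both sets of letters could be picked, so the matches shown were again set by the choice. Cenpa is chr5:30666636-30666935 on the plus strand and Cdk1 chr10:69352863-69353162 on the minus strand. Capitals mark TTTGAA (CHR) and CCAAT, each searched on both strands, so that ATTGG is CCAAT on the other strand.
Cenpa: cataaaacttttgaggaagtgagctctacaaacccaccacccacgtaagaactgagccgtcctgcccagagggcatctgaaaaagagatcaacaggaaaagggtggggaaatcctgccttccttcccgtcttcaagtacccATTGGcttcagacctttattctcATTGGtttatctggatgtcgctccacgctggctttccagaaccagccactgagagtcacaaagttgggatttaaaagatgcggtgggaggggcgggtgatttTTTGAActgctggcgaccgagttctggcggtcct
Cdk1: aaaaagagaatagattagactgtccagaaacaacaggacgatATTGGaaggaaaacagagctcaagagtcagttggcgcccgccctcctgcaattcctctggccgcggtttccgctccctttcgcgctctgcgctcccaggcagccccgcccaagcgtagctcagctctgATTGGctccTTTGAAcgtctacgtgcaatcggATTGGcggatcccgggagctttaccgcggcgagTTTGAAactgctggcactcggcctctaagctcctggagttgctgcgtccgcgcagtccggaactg
In Cdk1 the CHR letters start 71 and 15 bases before the start site and the CCAAT letters 208, 80 and 48 bases before it. In Cenpa the CHR letters start 16 bases after the start site and the CCAAT letters 109 and 86 before it. Of 43 measured mitotic genes with a promoter, 33 held the CHR letters (76.7%) and 32 held CCAAT (74.4%), against 20.2% and 41.1% of all promoters. Of the 11 that rose and had a promoter, 8 held CHR and 8 held CCAAT.

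Ribosome biogenesis genes, whose products make ribosomal RNA and assemble ribosomes, also rose in part. Of 40 measured, 8 rose (20%, against 3.12% of all genes) and 0 fell, with a median of 0.31 and 29 above 0. Mybbp1a, Wdr74, Bop1, Bysl, Gar1, Grwd1, Nip7 and Nolc1 rose by 0.73, 0.63, 0.59, 0.59, 0.54, 0.50, 0.50 and 0.48. Bysl, needed for the small subunit, had values of 0.23, 0.21 and 0.01 in KO 24 h arrays, against -0.39, -0.33 and -0.62 in KO 0 h arrays, with no overlap. This count rested on single arrays. It was 0 without KO 0 h replicate 3, 2 without KO 0 h replicate 2, KO 24 h replicate 1 or KO 24 h replicate 2, and 5 without KO 0 h replicate 1.

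Some genes that restrain growth fell. Of 22 genes of quiescence and atrophy, 5 fell (22.7%, against 6.7% of all genes) and 0 rose, and 18 lay below 0. Fbxo32, a ubiquitin ligase subunit first known from muscle atrophy, had values of -0.47, -0.45 and 0.03 in KO 24 h arrays, against 0.59, 1.01 and 0.71 in KO 0 h arrays, a difference of -1.07 (SE 0.14, adjusted p = 0.00144). Cdkn1b, the cell cycle inhibitor p27, had values of -0.55, -0.64 and -0.34 in KO 24 h arrays, against 0.15, 0.71 and 0.46 in KO 0 h arrays, a difference of -0.95 (SE 0.14, adjusted p = 0.00207). Neither gene overlapped between the groups. Ccng2, Sesn1 and Bcl6 fell by 0.68, 0.59 and 0.41. The list had 3 falls without KO 0 h replicate 2 or KO 24 h replicate 1. Klhl24, a ubiquitin ligase adaptor that regulates keratin 14 turnover, had values of -0.38, -0.37 and -0.54 in KO 24 h arrays, against 0.82, 1.13 and 1.13 in KO 0 h arrays, a difference of -1.46 (SE 0.15, adjusted p = 0.000663).

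In the WNT and BMP list, 5 of 37 fell (13.5%) and 3 rose (8.11%), against 6.7% and 3.12% of all genes. The 5 were Rspo3, a secreted enhancer of WNT signalling, its receptors Lgr4 and Lgr5, the WNT feedback gene Axin2 and the BMP antagonist Grem1. Rspo3 had values of -0.37, -0.54 and -0.21 in KO 24 h arrays, against 0.74, 0.85 and 0.38 in KO 0 h arrays, a difference of -1.03 (SE 0.20, adjusted p = 0.00585). No array overlapped. Lgr5, Grem1, Axin2 and Lgr4 fell by 0.74, 0.75, 0.61 and 0.55, and the ligand genes Wnt10a, Bmp7 and Wnt4 rose by 0.52, 0.47 and 0.40. Among single KO arrays left out, the lowest counts were 2 falls without KO 0 h replicate 2 and 1 rise without KO 0 h replicate 3, and 3 falls were left without KO 0 h replicate 3, KO 24 h replicate 1 or KO 24 h replicate 3. Of 40 differentiation transcription factors, 3 rose (Ppard 0.56, Cebpb 0.55, Elf5 0.38) and 4 fell (Hes1 -0.57, Tfap2b -0.56, Gata3 -0.47, Trp63 -0.37). That is 7.5% and 10%, against 3.12% and 6.7% of all genes. Trp63 encodes p63, the regulator of stratified epithelia, and its values were -0.27, -0.17 and -0.11 in KO 24 h arrays, against 0.08, 0.25 and 0.23 in KO 0 h arrays. These counts were 0 rises without KO 0 h replicate 3 or KO 24 h replicate 3, 1 rise without KO 0 h replicate 2 or KO 24 h replicate 1, 1 fall without KO 0 h replicate 2, KO 0 h replicate 3 or KO 24 h replicate 1, and 2 falls without KO 24 h replicate 2.

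**Figure D2:**
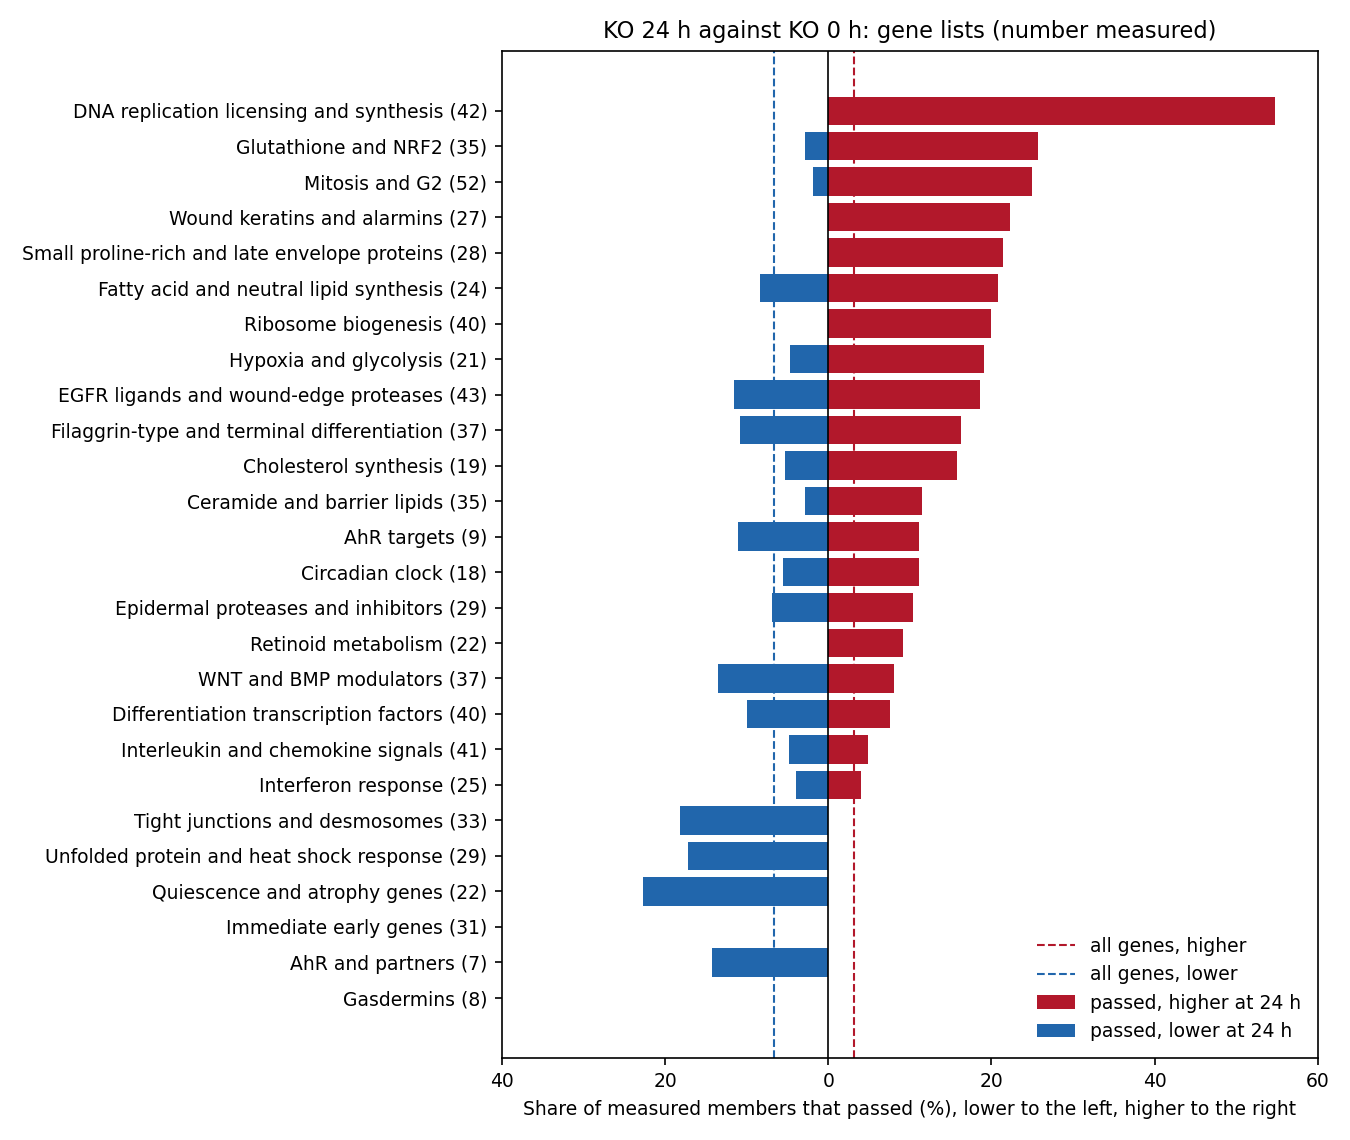
Share of the measured members (percent, x axis) of each of 26 gene lists that passed, lower at 24 h to the left in blue and higher to the right in red, with the number measured in brackets and dashed lines for all genes at 6.7% lower and 3.12% higher. DNA replication stands at 54.8% higher, and quiescence, unfolded protein and junction genes show bars only to the left. The lists were drawn up with earlier results of these data known.

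Of 43 ligands, receptors and proteases of the wound edge, 8 rose (18.6%) and 5 fell (11.6%), against 3.12% and 6.7% of all genes. Gjb2, connexin 26, had values of 2.55, 1.02 and 1.89 in KO 24 h arrays, against -0.24, -0.24 and -0.26 in KO 0 h arrays, a rise of 2.07 (SE 0.40, adjusted p = 0.00598). Nrg1, a ligand of ERBB3 and ERBB4, had values of 1.56, 0.30 and 0.63 in KO 24 h arrays, against -0.81, -0.73 and -0.48 in KO 0 h arrays, a rise of 1.5 (adjusted p = 0.00603). Both genes were apart between groups and highest in KO 24 h replicate 1. The ligand Hbegf rose by 0.55 while the ligands Btc (betacellulin) and Ereg (epiregulin) fell by 1.13 and 0.86. Tnc, tenascin C, Fscn1, Plaur, the urokinase receptor, Itga5 and Adam8 rose by 0.80, 0.80, 0.70, 0.60 and 0.58. The integrin genes Itga2 and Itgav and the laminin gene Lama3 fell by 0.76, 0.48 and 0.55. Rises numbered 3 without KO 0 h replicate 3 or KO 24 h replicate 1 and 5 without KO 0 h replicate 1 or 2. Falls numbered 1 without KO 24 h replicate 1, 3 without KO 0 h replicate 1, and 2 without each of the other KO arrays.

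Of 41 interleukin and chemokine genes, 2 rose and 2 fell (4.88% each), shares near the 3.12% and 6.7% of all genes. The median was 0.06, and 0.03 to 0.14 without single KO arrays, lowest without KO 0 h replicate 2 and highest without KO 0 h replicate 3. Ptgs2, the inducible cyclooxygenase, had values of 0.95, 0.09 and -0.34 in KO 24 h arrays, against -1.28, -1.94 and -0.89 in KO 0 h arrays, a rise of 1.60 (SE 0.33, adjusted p = 0.00862). Cxcl1, a neutrophil attractant, rose by 1.13, with values of 0.94, 0.72 and 0.63 in KO 24 h arrays, against -0.41, -0.45 and -0.25 in KO 0 h arrays. Il20ra, a receptor chain for interleukins of the IL-20 group, fell by 0.82 and Cxcl14, a chemokine of resting epidermis, by 0.85. Without KO 24 h replicate 2, 5 rose and 1 fell, and without KO 24 h replicate 3, 4 fell. None of 31 immediate early genes passed in limma, and 4 had an unadjusted p under 0.05, with 24 of the 31 below 0 and a median of -0.12, which was -0.19 without KO 24 h replicate 3.

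None of 8 gasdermins, pore-forming proteins of dying cells, passed in limma, and 4 had an unadjusted p under 0.05. In the interferon list Bst2 rose by 0.73 and Ifih1 fell by 0.67, of 25 measured (4% each). These shares were near the 3.12% higher and 6.7% lower of all genes. Without KO 0 h replicate 3 or KO 24 h replicate 1 Bst2 did not pass.

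Glutathione and NRF2 genes rose in 9 of 35 (25.7%), with 1 fall (2.86%) and a median of 0.22. Over all genes the shares were 3.12% higher and 6.7% lower. Gsta4, a glutathione transferase that clears lipid peroxidation products, had values of 3.49, 1.91 and 2.86 in KO 24 h arrays, against -1.0, -1.32 and -1.14 in KO 0 h arrays. The groups were far apart, with a difference of 3.91 (SE 0.53, adjusted p = 0.0015). Akr1b8, Aldh3a1, Mgst2, Pgd, Cbr1, Gsr, Taldo1 and Gclm rose by 1.05, 0.80, 0.67, 0.51, 0.49, 0.43, 0.43 and 0.32, and Me1 fell by 0.50. The rises numbered 3 without KO 24 h replicate 1, 4 without KO 0 h replicate 2 or 3, and 5 without KO 24 h replicate 3. Of 9 measured AhR target genes, Aldh3a1 rose and Scin fell by 0.66 (11.1% each, against 3.12% and 6.7% of all genes). Scin had values of -0.61, -0.46 and -0.20 in KO 24 h arrays, against -0.07, 0.46 and 0.32 in KO 0 h arrays, and did not pass without KO 0 h replicate 2 or 3 or KO 24 h replicate 1 or 2. The classical targets Cyp1a1, Cyp1b1, Tiparp and Nqo1 differed by 0.21, -0.49, -0.75 and 0.37 and did not pass (adjusted p of 0.38, 0.0722, 0.0628 and 0.122).

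Lipid genes rose in small numbers. Of 24 fatty acid and neutral lipid genes 5 rose and 2 fell, of 19 cholesterol genes 3 rose and 1 fell, and of 35 ceramide and barrier lipid genes 4 rose and 1 fell. Rises made up 20.8%, 15.8% and 11.4% of these lists, against 3.12% of all genes. Falls made up 8.33%, 5.26% and 2.86%, against 6.7% of all genes. Elovl3, an elongase of very long fatty acids in sebaceous glands, rose by 1.46, Dgat1 by 0.84, Cidea by 0.77, Plin2 by 0.70 and Agpat2 by 0.54. Fa2h, Degs1, Cers4 and Slc27a4 of the ceramide list rose by 0.71, 0.65, 0.61 and 0.53, while Sptlc3 fell by 0.51. Pmvk, Fdps and Tm7sf2 of cholesterol synthesis rose by 0.57, 0.39 and 0.39, and Hmgcs1 fell by 0.54. Hmgcs1 did not pass without KO 0 h replicate 2 or 3 or KO 24 h replicate 1 or 3. Elovl3, Cidea and Plin2 are also 3 of the 15 sebaceous gland markers, where 3 rose and 13 lay above 0, with list means of 0.41, 0.17 and 0.43 above the KO 0 h mean in the KO 24 h arrays. Of the 15, 1 rose when any KO array other than KO 24 h replicate 2 was left out. The part of gland tissue in the lipid rises was not tested. Ceramide rises numbered 0 without KO 0 h replicate 2, KO 24 h replicate 1 or KO 24 h replicate 3, and 1 without KO 0 h replicate 3. Cholesterol rises numbered 1 without KO 0 h replicate 2, KO 0 h replicate 3 or KO 24 h replicate 1. Fatty acid rises numbered 2 without KO 0 h replicate 2, KO 0 h replicate 3, KO 24 h replicate 1 or KO 24 h replicate 3, and 3 without KO 0 h replicate 1. The 2 fatty acid falls, Me1 and Acsl5, numbered 0 without KO 0 h replicate 1, KO 0 h replicate 3 or KO 24 h replicate 1, and 1 without each of the others.

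Fabp5, the epidermal fatty acid binding protein that also carries retinoic acid, rose by 1.49 (adjusted p = 0.00649), and Rbp2 by 0.84. They were the 2 of 22 retinoid genes that passed (9.09%, against 3.12% higher of all genes). Rbp2 did not pass without KO 0 h replicate 2, KO 0 h replicate 3 or KO 24 h replicate 1. Of 21 hypoxia and glycolysis genes 4 rose, the glycolysis genes Pkm (0.61), Gapdh (0.58), Pgk1 (0.49) and Tpi1 (0.47). P4ha1 of the same list fell by 0.63 and passed in 1 of the 6 fits without a KO array, the one without KO 0 h replicate 1. The 4 rises numbered 0 without KO 0 h replicate 2, KO 24 h replicate 1 or KO 24 h replicate 3, and 1 without KO 0 h replicate 1 or 3. Of 18 circadian clock genes, Clock fell by 0.78 and Ciart and Nfil3 rose by 0.86 and 0.31. That is 5.56% lower and 11.1% higher, against 6.7% and 3.12% of all genes. Neither rise passed without KO 0 h replicate 1 or 2 or any 1 KO 24 h array.

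Of 29 genes of the unfolded protein and heat shock response, 5 fell (17.2%, against 6.7% of all genes) and 0 rose. Of the 29, 14 lay above 0 and 15 below. The list median was -0.03 in KO and lower in WT, at -0.20, where 1 member fell and 0 rose. Hsp90b1, the chaperone GRP94, had values of -0.57, -0.62 and -1.04 in KO 24 h arrays, against 0.09, -0.06 and -0.04 in KO 0 h arrays, a difference of -0.74 (SE 0.13, adjusted p = 0.00345). The calnexin gene Canx, the co-chaperone genes Dnajb9 and Dnajc3 and Hspa1a, a stress-induced cytosolic HSP70, fell by 0.44, 0.68, 0.46 and 0.45. The falls numbered 2 without KO 0 h replicate 3, KO 24 h replicate 2 or KO 24 h replicate 3, and 3 without KO 0 h replicate 2.

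The Skint genes, immunoglobulin-like membrane proteins of keratinocytes of which Skint1 is known to select the gamma-delta T cells of mouse epidermis, fell without exception among the measured members. Skint1 had values of -0.29, -0.17 and -0.12 in KO 24 h arrays, against 0.46, 0.54 and 0.78 in KO 0 h arrays, a difference of -0.79 (adjusted p = 0.00497). Skint10 had values of -0.73, -0.25 and -0.53 in KO 24 h arrays, against 1.0, 0.88 and 0.85 in KO 0 h arrays, a difference of -1.42 (SE 0.27, adjusted p = 0.00522). All 11 measured members passed, against 6.7% lower of all genes, with differences of -1.42 to -0.79 and a median of -1.13. The family was singled out after its values were seen. Its members are near-identical neighbours, so their rows may share transcripts and are not 11 independent results.

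Of 27 measured markers of epidermal T cells, 2 fell (7.41%, against 6.7% of all genes), Ptprc (CD45) by 0.77 and Cd96 by 0.51, and 0 rose, with 12 above 0 and a median of -0.03. Neither passed without KO 0 h replicate 1, KO 0 h replicate 2 or KO 24 h replicate 3. Trgv5, the variable segment of the epidermal gamma-delta receptor, differed by -0.06. Of 18 Langerhans cell markers Mfge8 rose by 0.87 (5.56%, against 3.12% of all genes). Mfge8 did not pass without KO 0 h replicate 2, KO 0 h replicate 3 or KO 24 h replicate 1. Of 28 neutrophil and monocyte markers S100a9 and Cd14 rose (7.14%), and keratinocytes can express both. Cd14 rose by 0.74, and by 0.45 in its lowest alternative, and passed only with all 6 KO arrays or without KO 24 h replicate 2. List means of the neutrophil and monocyte markers in the KO 24 h arrays were 0.17, 0.03 and 0.25 above the KO 0 h mean, and the part of such cells in the rises of S100a9 and Lcn2 was not tested.

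Counts for the other compartments stand beside 3.12% higher and 6.7% lower of all genes. Of 11 basal keratinocyte markers Krt14 rose by 0.56 and Postn, Dst and Trp63 fell by 0.78, 0.61 and 0.37. Postn was also the 1 of 20 dermal fibroblast markers that fell, while 0 rose. Lgr5 was the 1 of 29 hair follicle genes and Mitf (-0.47) the 1 of 13 melanocyte genes that fell. Acta2 (0.61) of 15 endothelial and pericyte genes, Pvalb (0.21) of 16 muscle genes and Hdc (0.39) of 10 mast cell genes rose. None of 9 adipocyte genes and none of 8 Merkel cell and nerve genes passed in limma, where 0 and 1 had an unadjusted p under 0.05. Muscle markers all lay above 0, with a median of 0.09. Acta2, Pvalb, Hdc, Lgr5 and Mitf each failed to pass without at least 3 of the single KO arrays.

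The 15 largest falls held 4 Skint genes and 4 numbered zinc finger genes. Zfp960, a KRAB-type zinc finger gene, had values of -0.50, -0.62 and -1.87 in KO 24 h arrays, against 0.94, 0.39 and 0.20 in KO 0 h arrays, a difference of -1.51 (SE 0.29, adjusted p = 0.00609). KO 24 h replicate 3 was far below the other arrays of its group. Of 370 measured genes named Zfp with a number, 77 fell (20.8%, against 6.7% of all genes) and 0 rose. The median was -0.14, and this family was also picked after its values were seen. Other large falls were Aspn, the matrix proteoglycan asporin, by 1.43, the RNA helicase gene Ddx5 by 1.38, Calcrl, the calcitonin-like receptor of blood and lymph vessels, by 1.37, Slitrk6 by 1.31, Sema3d by 1.29 and Aadacl2fm1 by 1.25. Calcrl had values of -0.42, -0.48 and -0.68 in KO 24 h arrays, against 0.69, 0.92 and 0.93 in KO 0 h arrays, and passed without any single KO array. Of the 30 largest changes, 28 passed whichever KO array was left out. Lce3d and Ddx5 each passed in 2 of the 6 such fits.

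Genes that fell were longer than genes that rose. The median genomic span in RefSeq was 50.1 kb for rows that fell, 9.78 kb for rows that rose and 15.1 kb for rows that did not pass. Among the 5047 longest protein-coding rows (48.96 kb and up) 15.5% fell, and among the 5047 shortest (6.499 kb and under) 4.87% rose. The median of the long minus the median of the short rows was -0.04, -0.06 and -0.04 in KO 24 h arrays, against 0.02, 0.04 and 0.04 in KO 0 h arrays. Groups did not overlap in this measure. With a smooth curve on gene span removed from each array, a setting chosen after seeing the data, 900 rows rose and 1290 fell, 25 replication, 12 mitosis and 9 ribosome genes rose, and 136 of 150 named genes that passed still did. Whether RNA quality or labelling moved with time was not tested, as no such values are given per array.

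**Figure D3:**
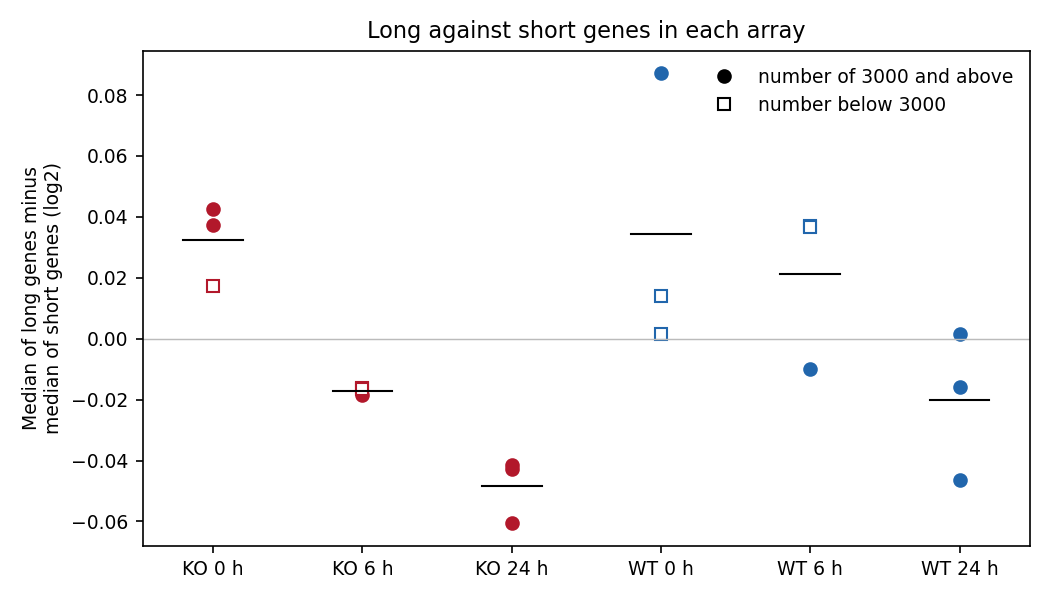
Median centred log2 value of the longest minus that of the shortest protein-coding rows (y axis) in each of the 18 arrays by group (x axis), with bars for group means and open squares for arrays with a number below 3000. The KO 24 h arrays lie between -0.06 and -0.04 and the KO 0 h arrays between 0.02 and 0.04.

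In WT 24 h against WT 0 h, 0 rows rose and 7 fell (0.0298%, or 0.0316% at 1 row per gene), with 2946 at an unadjusted p under 0.05. Without any single WT array of the 2 times 0 rows fell, and after a further quantile normalisation 71 rows rose and 193 fell. The 7 were Dhx9, Gcc2, Hsp90b1, Pnn, Nol8, Erap1 and Trat1, and the fall of Hsp90b1 was 0.81 in WT and 0.74 in KO. Across the tested rows, WT 0 h arrays correlated with each other at 0.04 to 0.30 and WT 24 h arrays at 0.07 to 0.19. The KO arrays stood higher, at 0.33 to 0.58 at 0 h and 0.48 to 0.51 at 24 h. The part of this in the small WT counts was not tested. The difference between KO and WT in the 24 h response passed in limma for 0 rows, with 2165 at an unadjusted p under 0.05 and a smallest adjusted p of 0.102. It passed for 4 higher and 5 lower rows with array weights, for 3 higher rows after a further quantile normalisation, and for 8 higher and 24 lower rows without WT 0 h replicate 1. No gene below is therefore shown to answer differently in KO.

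The sizes still stood side by side as follows. Krt6b differed by 5.34 in KO and 1.62 in WT (adjusted p of the difference 0.314), Krt16 by 3.40 and -0.11 (0.195), Gsta4 by 3.91 and 0.59 (0.225), and Csta3 by 2.73 and 0.19 (0.195). The smallest p of the difference belonged to Slc25a10, a mitochondrial dicarboxylate carrier, at 0.76 in KO and -0.06 in WT, to Mcm2 at 1.07 and -0.08, to Cd59a, an inhibitor of complement, at -0.94 and 0.23, and to Fbxo32 at -1.07 and 0.16, each with an adjusted p = 0.102. The replication list had a median of 0.44 in KO and 0.02 in WT, and the mitosis list 0.16 in KO and 0.12 in WT. The 727 rows that rose in KO had a WT median of 0.10 with 552 above 0, and the 1522 that fell had a WT median of -0.25 with 1386 below 0. The Skint median was -1.13 in KO and -0.49 in WT, where 0 passed. Skint means were 0.81, 0.66 and 0.80 in KO 0 h arrays and 0.39, 0.14 and 0.21 in WT 0 h arrays. At 24 h they were -0.36, -0.26 and -0.45 in KO and -0.13, -0.12 and -0.24 in WT. The genotypes thus also lay apart before stripping, a difference that was not tested.

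**Figure D4:**
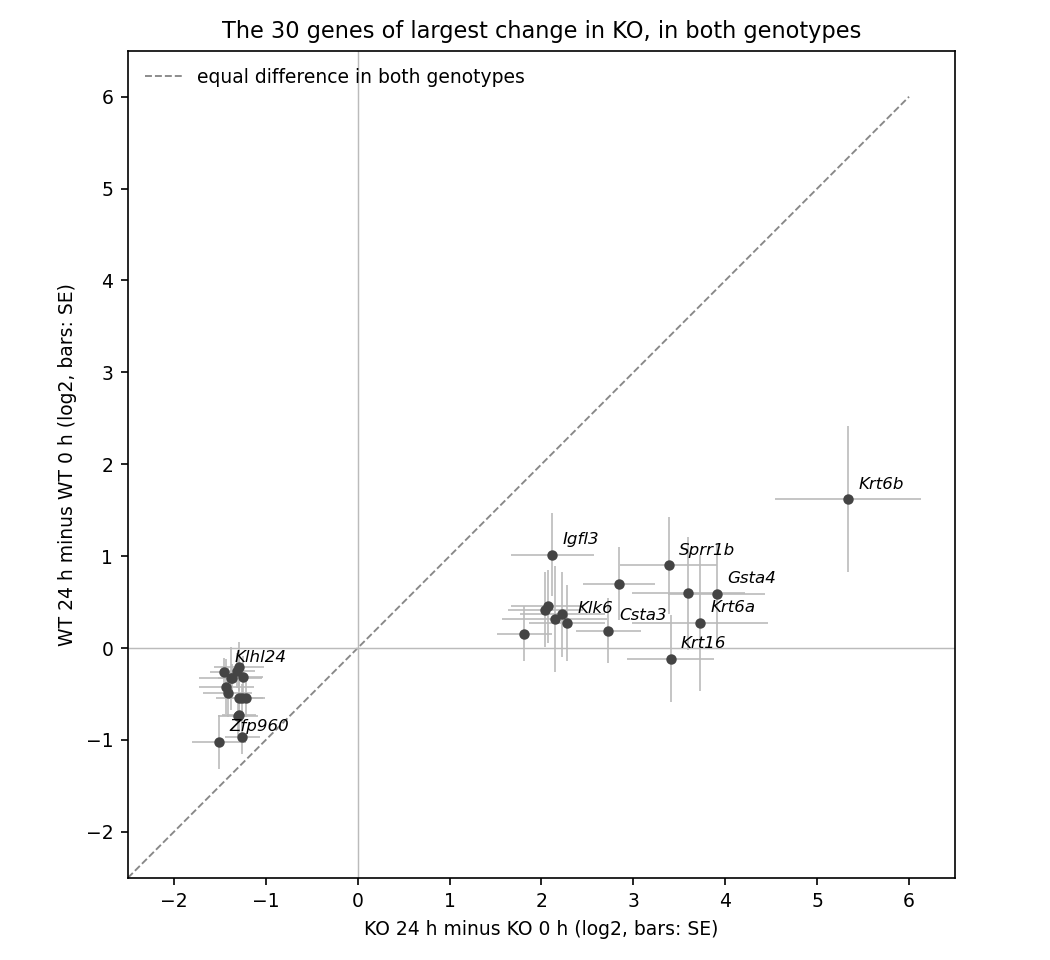
Differences of 24 h minus 0 h on the log2 scale for the 30 genes with the largest changes in KO, KO on the x axis and WT on the y axis, with bars for the standard error from limma and a dashed line for equal differences. Krt6b lies at 5.34 in KO and 1.62 in WT, the rising genes lie below the line and the falling genes above it, and since all were chosen for a large KO value that place is partly set by the choice.

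At 6 h, which shares the KO 0 h arrays with the 24 h comparison, 370 rows were higher and 802 lower (1.57% and 3.41%, together 4.98%). At 1 row per gene the shares were 1.59% and 3.53%. KO 24 h against KO 6 h, which uses the KO 24 h arrays again, gave 147 higher and 145 lower rows (0.625% and 0.616%, together 1.24%). Of the 3 KO 6 h arrays, 2 have numbers below 3000, while all KO 24 h arrays lie above it, and with the number class as a block the counts were 25 higher and 11 lower. Krt6b differed by 3.73 at 6 h and 5.34 at 24 h, Krt16 by 3.08 and 3.40, Gsta4 by 3.01 and 3.91, and Fbxo32 by -1.39 and -1.07. Csta3 differed by 0.64 at 6 h (adjusted p = 0.328) and 2.73 at 24 h, and KO 24 h against KO 6 h passed for it (2.09, adjusted p = 0.0154). Stfa2l1 went the same way, at 0.39 at 6 h and 1.42 from 6 h to 24 h (adjusted p = 0.0319). Stfa1 and Stfa3 already passed at 6 h, at 2.94 and 1.59 (adjusted p of 0.0168 and 0.0342). Their 24 h minus 6 h differences of 0.66 and 1.26 did not pass. Cstdc6 passed in neither, at 0.87 and 0.25. Tk1 differed by -0.19 at 6 h and 1.08 at 24 h, and its 24 h minus 6 h difference of 1.27 passed (adjusted p = 0.0025).

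By list, mitosis genes had a median of -0.27 at 6 h with 0 passing and of 0.16 at 24 h. Between KO 24 h and KO 6 h, 16 of the 52 rose and 0 fell, against 0.649% and 0.64% of all genes. Replication genes had a median of 0.10 at 6 h, with 1 of 42 passing, and 0.44 at 24 h. Ribosome biogenesis genes had one of 0.53 at 6 h, where 16 of 40 rose, and 0.31 at 24 h, and 4 fell between 6 h and 24 h. Unfolded protein and heat shock genes had 8 rises at 6 h and 5 falls at 24 h, with medians of 0.23 and -0.03, the 24 h median being 0.03 without KO 0 h replicate 1 and 0.01 without KO 24 h replicate 3. Immediate early genes had 7 falls at 6 h and 0 calls at 24 h, and quiescence genes 7 falls at 6 h and 5 at 24 h. The Skint genes already had a median of -0.85 at 6 h, where 7 of 11 fell, against 3.53% of all genes. None of the 11 passed between KO 24 h and KO 6 h, where Skint11 differed most, by -0.91 (adjusted p = 0.0642). The 6 h calls depend on single arrays as well, with 48 higher and 111 lower rows left without KO 0 h replicate 2, and KO 24 h against KO 6 h gave 11 higher and 0 lower rows without KO 6 h replicate 3.

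**Figure D5:**
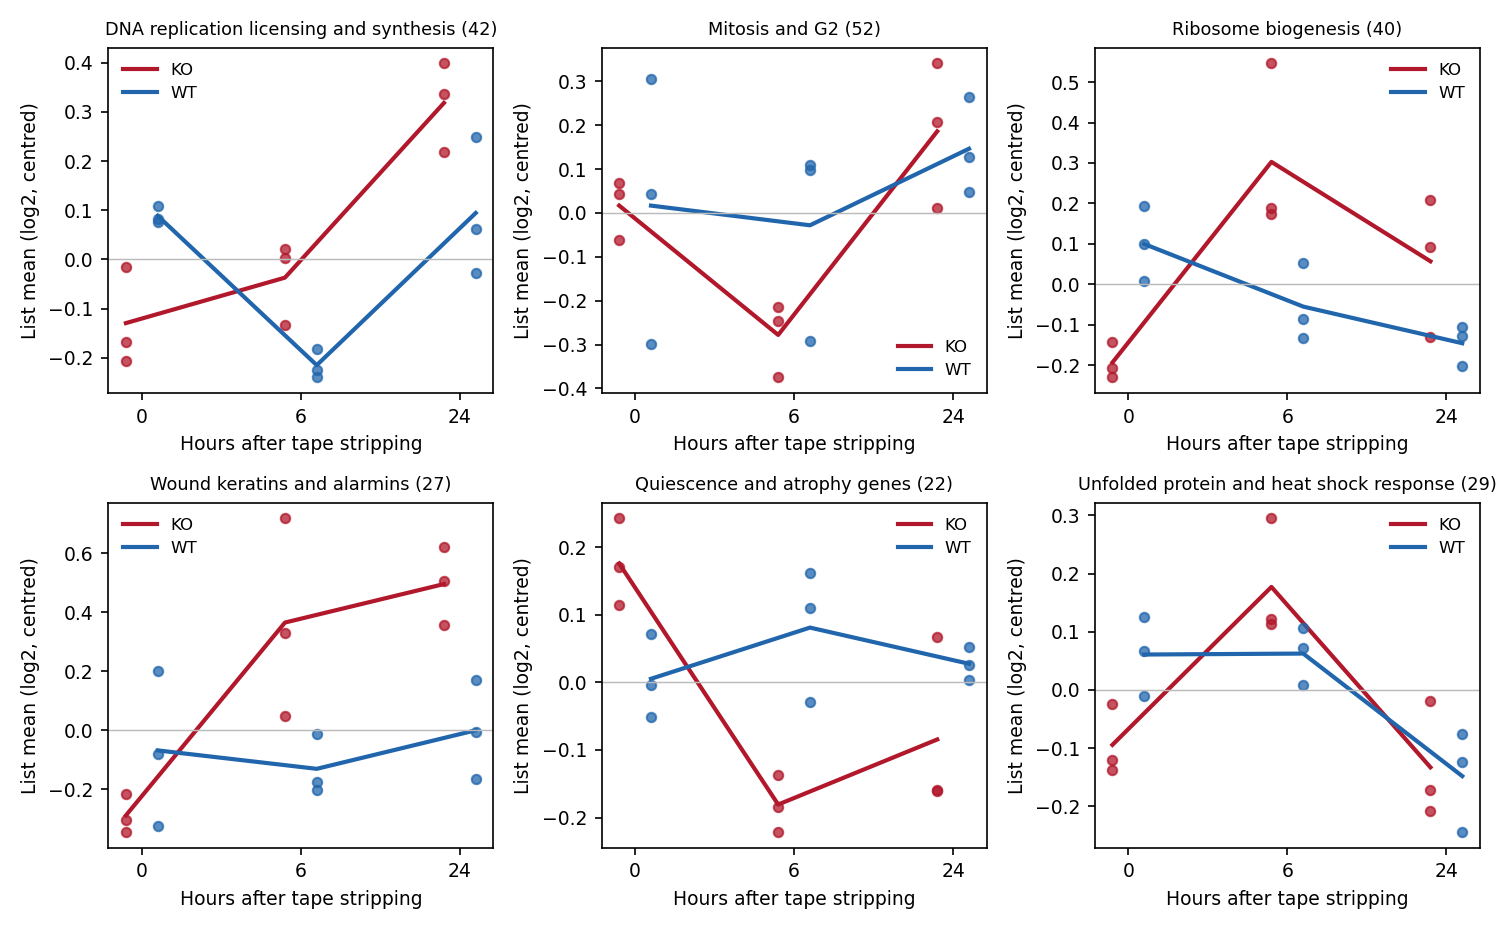
Mean centred log2 value over the measured members of 6 lists (y axis) in each array at 0, 6 and 24 h (x axis, evenly spaced), KO in red and WT in blue, with lines through group means. Replication means lie between 0.22 and 0.40 in the KO 24 h arrays, and between -0.21 and -0.02 in the KO 0 h arrays.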

How the data were processed

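Female AhR-/- and AhR+/+ littermates gave 18 epidermal sheet samples in 6 groups of 3, hybridised as biotin-labelled cDNA to Affymetrix gene arrays. The deposited value table holds log values, read here as log2 though no source states the base, in which the authors had removed each row's median over the 18 arrays, as the values themselves show. The labels and headers used here name no summarising or normalising step for the scanner files. With no level left in the values, neither the share of rows above background nor tissue markers could be read, and only the number of arrays sets the precision.

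Of 33793 rows, 23521 carried 1 gene symbol in the platform annotation and were tested, 1814 carried several and 8458 none. A model with a mean per group over all 18 arrays (12 residual degrees of freedom) was fitted in limma 3.58.1 under R 4.3.3 with eBayes, and Benjamini-Hochberg adjustment ran over the tested rows. Adjusted p-values in the text come from it. It was tested on simulated data beforehand. For a gene with several rows, the row that varied most (SD) across arrays stood for it in 39 lists, of which 973 of 1057 members were measured. Members and lists were chosen with earlier results of these data known.

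Genes were named by rule: Ahr, the 15 largest passing changes in each direction without predicted models and receptor segments, members of each list with the smallest p or that help describe it, the smallest p of the KO and WT difference, and Xist with Y-linked genes. Whether replicate numbers pair the arrays is not known, and the main fit took no pairing. Same-numbered KO 24 h and KO 0 h arrays deviated together with correlations of 0.06, -0.02 and -0.07, and other combinations with -0.16 to 0.17. With 3 arrays per group such correlations cannot exclude a pairing. Nothing says whether arrays were processed in batches. Alternatives covered normalisation, rows tested, variance settings, blocks, gene span and leaving out each array. Gene spans and promoters came from RefSeq GRCm38.p6.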

Additional observations from a re-analysis of the deposited data

Results flagged for a closer look

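For 5 lists, the list mean of every KO 24 h array moved one way from the KO 0 h mean and that of every WT 24 h array moved the other way from the WT 0 h mean. These differences were not tested, and no single gene's difference between the genotypes passed. Ribosome biogenesis genes shifted by 0.40, 0.29 and 0.06 in KO and by -0.30, -0.23 and -0.21 in WT, a difference of 0.496. Ligands and proteases of the wound edge shifted by 0.25, 0.06 and 0.12 in KO and by -0.22, -0.17 and -0.09 in WT, a difference of 0.299. Interleukin and chemokine signals shifted by 0.18, 0.01 and 0.15 in KO and by -0.02, -0.19 and -0.02 in WT, a difference of 0.189. Langerhans cell markers shifted by 0.19, 0.09 and 0.18 in KO and by -0.05, -0.33 and -0.23 in WT, a difference of 0.354. WNT and BMP modulators shifted by -0.12, -0.13 and -0.09 in KO and by 0.07, 0.08 and 0.10 in WT, a difference of -0.194. Of the arrays behind these shifts, 2 of the 3 KO 0 h arrays and 1 of the 3 WT 0 h arrays have a sample number from 3000 up, as all 24 h arrays of both genotypes do, and the part of that number in the shifts was not tested.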

How the results depend on the processing

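Of 150 named genes that passed, 0 changed direction under any alternative, and 79 passed without each of the 6 KO arrays in turn. A further quantile normalisation kept 136 of the 150, all rows tested 138, the number class as a block 141 and gene span removed 136. For KO 24 h against KO 0 h, array weights gave 1149 higher rows, a test against a minimum of 0.5 gave 5 higher and 2 lower, and leaving out 1 array gave 259 to 526 higher and 770 to 1322 lower. With the replicate block, 658 rows were higher and 1380 lower, and 140 of the 150 passed. For the KO and WT difference, quantile normalisation gave 3 higher, array weights 4 higher and 5 lower, and leave-one-out 0 to 8 higher and 0 to 24 lower. For WT 24 h against WT 0 h, quantile normalisation gave 71 higher and 193 lower, the replicate block 0 lower, the number block 2 higher, and leave-one-out 0 lower throughout. For KO 6 h against KO 0 h, quantile normalisation gave 534 lower and leave-one-out 48 to 450 higher and 111 to 876 lower. For KO 24 h against KO 6 h, quantile normalisation gave 51 higher and 34 lower, the number block 25 and 11, and leave-one-out 11 to 468 and 0 to 374. The cause of these shifts was not tested, beyond the smaller number of arrays in the last kind.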
